A study of Mus musculus with 19 samples.

Results

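The interleukin-6 (IL-6) family was followed at a musculoskeletal injury site of the mouse through 10 of the 27998 genes counted, picked by their symbols. They were the ligand genes Il6, Osm, Lif, Il11 and Clcf1 and the receptor genes Il6st, Il6ra, Lifr, Osmr and Il11ra1. Cells of the tendon injury site had been captured in 19 droplet libraries, of which 4 were from day 0, 3 from day 3, 4 from day 7 and 4 from day 21 after burn/tenotomy, and 4 from mice given the CD47-activating peptide p7N3. Burn/tenotomy joins a scald of 30% of the body surface on the back to transection of the Achilles tendon, a model in which bone later forms in soft tissue. Day 0 tissue was uninjured by the account of the experiment, yet the burn is listed in the labels of every library. p7N3 was given into the peritoneum at 10 mg/kg daily for 3 days before and 3 days after injury with harvest at day 7. No harvest day is labelled for p7N3 replicate 4. The labels name C57 and LysmCre/Tgfb1fx/fx mice (Cre under a myeloid gene, with floxed Tgfb1) for the series as a whole and tie neither to a library, and they give no age and no vehicle for the day 7 mice. The study's methods describe young adult male C57BL/6J mice. No label says that replicates came from separate animals, so every p-value here measures the spread between libraries.

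Cytokines of this family share the signalling chain gp130, the product of Il6st. IL-6 and IL-11 bind their own non-signalling chains, encoded by Il6ra and Il11ra1, before gp130 is engaged, whereas LIF, oncostatin M (Osm) and CLCF1 act through gp130 joined to the products of Lifr or Osmr, oncostatin M of the mouse mainly through Osmr. Bound receptors activate JAK kinases and STAT3, and Socs3, itself a STAT3 target, shuts the signal down. The family is known for driving the acute-phase response and for acting on bone-forming and bone-resorbing cells.

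All 10 identifiers were protein-coding genes of GENCODE vM21 on GRCm38. The ligand genes Osm (chr11:4236420-4241026, + strand) and Lif (chr11:4257557-4272514, +) were neighbours with 16530 bases and 0 protein-coding genes between them, and so were the receptor genes Osmr (chr15:6813577-6874969, -) and Lifr (chr15:7090614-7197489, +), 215644 bases apart with 0 between. Il6 lay at chr5:30013114-30019981 (+), Il11 at chr7:4772373-4782859 (-), Clcf1 at chr19:4214238-4223490 (+), Il6st at chr13:112464070-112510086 (+), Il6ra at chr3:89864059-89913196 (-) and Il11ra1 at chr4:41699989-41769474 (+). Il6ra and Clcf1 each overlapped a gene on the opposite strand, and Clcf1 also overlapped the protein-coding AC109138.7 on its own strand, so its level is uncertain to the extent that shared reads were discarded. The annotated span of Il11ra1 overlapped several other genes, among them Dctn3 and Galt, and the gene has near-identical copies. Il11ra1 held 89250 unique molecular identifiers (UMIs, counts of distinct captured molecules), the copy Gm13305 held 1970, Gm13306 held 51 and the 3 Il11ra2 entries held 0, so its level is uncertain to the extent that reads were split or discarded among them.

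Promoter sequences (RefSeq, GRCm38.p6, the 250 bases read 5′ to 3′ on the gene's strand) are shown for the ligand genes with an AP-1-type motif, because Il6, Lif and Il11 were all higher at day 3 in stromal-like cells, and for Socs3, the feedback gene of the pathway. Of the members, 8 had an entry and 3 held TGANTCA on either strand. Osm and Clcf1, also higher at day 3 in stromal-like cells, had no entry. Il6st, higher there too, had an entry that held neither motif. Capitals mark TGANTCA in the ligand genes and the STAT-type motif TTCNNNGAA in Socs3, beginning at -249, -228, -98 and -154 from the gene start in the order printed. Il11 has another entry upstream (chr7:4782858-4783107), which held neither motif.
Il6, chr5:30012864-30013113 (+): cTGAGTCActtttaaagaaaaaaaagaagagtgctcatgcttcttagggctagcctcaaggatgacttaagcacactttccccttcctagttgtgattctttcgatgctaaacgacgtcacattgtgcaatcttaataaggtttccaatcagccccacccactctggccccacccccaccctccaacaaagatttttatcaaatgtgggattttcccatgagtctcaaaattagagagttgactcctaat
Lif, chr11:4257318-4257567 (+): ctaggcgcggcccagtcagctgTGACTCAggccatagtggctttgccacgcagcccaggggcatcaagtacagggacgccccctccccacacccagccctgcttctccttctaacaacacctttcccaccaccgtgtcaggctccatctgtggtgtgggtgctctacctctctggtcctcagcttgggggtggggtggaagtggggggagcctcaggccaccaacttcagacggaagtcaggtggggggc
Il11, chr7:4778142-4778391 (-): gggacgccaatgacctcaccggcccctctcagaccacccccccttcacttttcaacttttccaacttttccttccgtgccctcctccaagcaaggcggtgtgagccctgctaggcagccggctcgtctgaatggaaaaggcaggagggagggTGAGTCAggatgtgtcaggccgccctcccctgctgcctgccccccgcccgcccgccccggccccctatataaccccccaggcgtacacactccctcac
Socs3, chr11:117969367-117969616 (-): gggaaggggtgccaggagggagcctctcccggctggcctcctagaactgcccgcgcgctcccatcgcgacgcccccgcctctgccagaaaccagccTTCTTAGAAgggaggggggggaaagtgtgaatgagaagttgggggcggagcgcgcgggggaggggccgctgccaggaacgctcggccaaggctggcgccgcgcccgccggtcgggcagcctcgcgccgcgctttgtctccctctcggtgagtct
Among 32851 promoter entries of this length, 6.75% held TGANTCA and 7.02% held TTCNNNGAA, and a match says nothing of whether a factor was bound.

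The libraries held 571 to 3668 cells each, and 39541 cells in all. Day 0 was the shallowest group, with 3019467 to 5383855 UMIs in cells per library against 11064153 to 39870492 in the others, and cell types were called from marker genes after clustering without the members. Stromal-like cells were defined by Pdgfra (a UMI in 78.2% of them and 7.70% of other cells), endothelial-like cells by Pecam1 (95.1% and 7.53%) and monocyte/macrophage-like cells by Lyz2, which also reached 70.3% of other cells at these depths. Any pair of libraries shared at most 22 cell barcodes. Cluster makeup changed with time. At day 0, 943 of 993 endothelial-like cells lay in a cluster led by Timp4 and Gpihbp1, but at day 7 the cluster led by Plvap and Selp held 552 of 588. At day 3, 750 of 818 stromal-like cells lay in a cluster led by Prg4 and Cxcl14, in which 45.8% of cells also held a UMI of Ptprc, the pan-leukocyte gene. Tenocyte-like cells formed a single cluster led by Col2a1, Fmod and Tnmd. Finer clustering gave a chondrocyte-like cluster led by Col2a1 and Ucma, with 880 day 21 cells and 0 day 0 cells. It also gave a tenocyte-like cluster led by Cilp2 and Chad with 50 day 0 cells, and another led by C1qtnf3 with 1234 day 7 cells. Values of tenocyte-like cells at different days may therefore be of unlike cells. Among monocyte/macrophage-like cells, a cluster led by Cd209f and Ccl8 held 315 day 0 cells and 74 day 3 cells. With finer clustering, a cluster led by Cd209f and Cd209g held 0 day 0 cells and 69 day 3 cells. Another, led by Ccl8 and Folr2, held 175 and 4. Day 3 values inside the Cd209f/Ccl8 cluster may therefore also be of unlike cells. Levels are given as counts per 1000000 UMIs (CPM) of the cells summed within a library, as mean ± SD over libraries. Differences are log2 fold changes, with SE, of those sums from edgeR's quasi-likelihood test, and adjusted p is Benjamini-Hochberg over all genes tested. A gene was called at an adjusted p under 0.05. Days 3, 7 and 21 were all set against the same day 0 libraries. In sums over the whole site, a change in the number of cells of a type cannot be told apart from a change in their RNA.

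**Figure D1:**
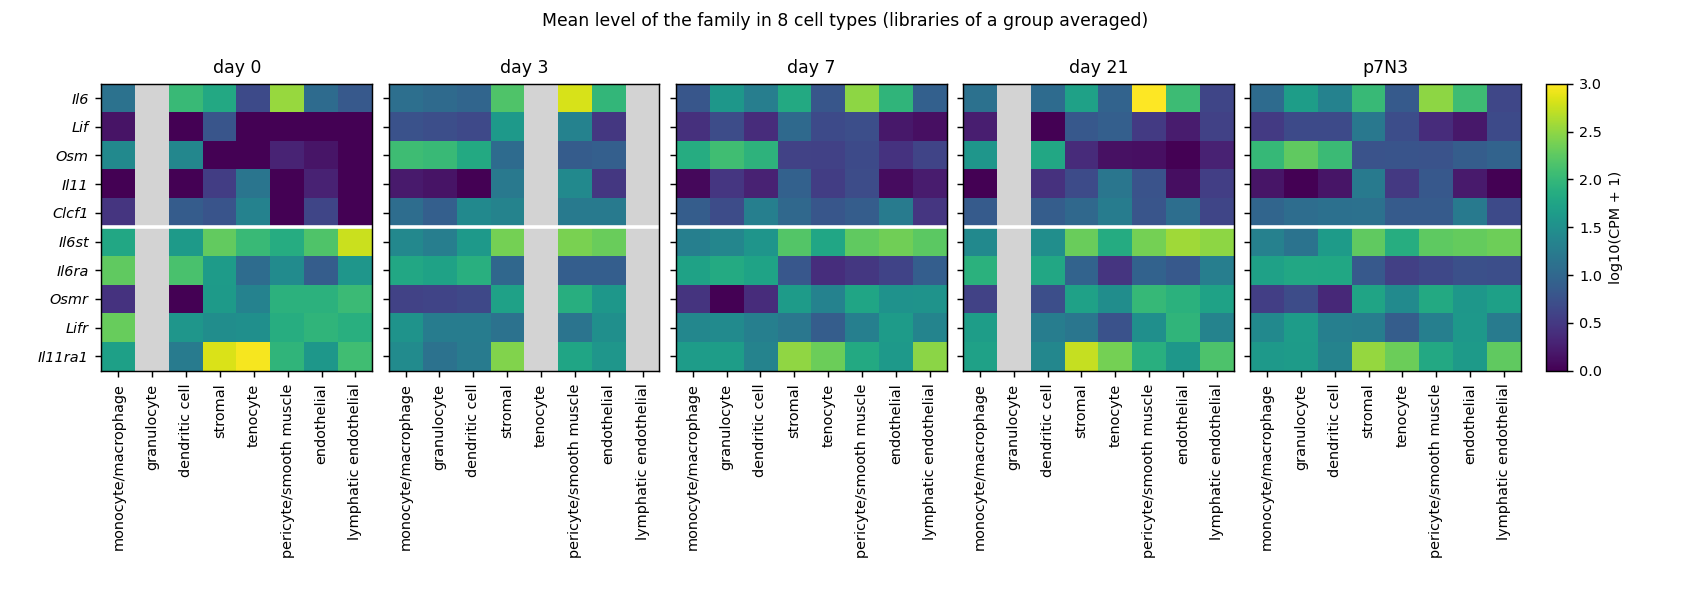
Mean level of each member (rows), as log10(CPM + 1), in 8 cell types (columns) and 5 groups (panels). Grey marks types of which no library or only a single library of the group held at least 10 cells. Il6 was highest in pericyte/smooth muscle-like cells at day 21 (1012 CPM), Osm in granulocyte-like and monocyte/macrophage-like cells, and Il11ra1 in tenocyte-like and stromal-like cells.

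Ligands were examined first, for which cells held them and when. Il6, the founding cytokine of the family, was held mostly by mural and stromal cells rather than by macrophages, and its stromal and endothelial levels rose at day 3. In pericyte/smooth muscle-like cells Il6 stood at 434, 465, 124 and 346 CPM in the 4 day 0 libraries, 832, 673 and 488 at day 3, 448, 196, 305 and 287 at day 7, and 1505, 827, 799 and 918 at day 21. All day 3 and all day 21 libraries lay above all those of day 0, and day 7 overlapped day 0. These cells were described by level alone, with no test. Inside the cluster led by Rgs5 and Higd1b, a pericyte-type cluster, Il6 averaged 729 ± 163 CPM at day 3 (n = 3), 315 ± 127 at day 7 (n = 4) and 1450 ± 500 at day 21 (n = 4), with 370 and 1962 CPM in the only 2 day 0 libraries that held enough cells. The Myh11/Tagln cluster, of smooth muscle type, kept to 229 ± 165, 322 ± 272 and 318 ± 68.3 CPM at days 0, 7 and 21. It held 145 of 183 pericyte/smooth muscle-like cells at day 0, and the Rgs5/Higd1b cluster held 69 of 95 at day 3. Over libraries of all groups the 2 clusters averaged 309 and 750 CPM of Il6. The part of this change of clusters in the day 3 and day 21 levels was not tested.

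In stromal-like cells Il6 measured 69.5, 35.2, 96.7 and 51.8 CPM at day 0, 176, 104 and 165 at day 3, 67.2, 49.3, 66.1 and 80.7 at day 7, and 56.4, 37.1, 47.9 and 61.4 at day 21. The 3 day 3 libraries were the highest of these, and days 7 and 21 overlapped day 0. Il6 rose 2.36-fold at day 3 (log2 1.24 ± 0.24, adjusted p = 0.00054 by edgeR), while the log2 difference was -0.00 at day 7 (95% interval -0.45 to 0.44) and -0.34 at day 21 (adjusted p = 0.30). Within stromal-like cells the level was uneven. The cluster led by Has1 and Tnfaip6 averaged 254 ± 111, 338 ± 97.1 and 426 ± 127 CPM at days 0, 7 and 21, whereas the Myoc/Clec3b cluster averaged 7.14 ± 6.14, 12.7 ± 13.7 and 7.17 ± 5.52 CPM. The Myoc/Clec3b cluster held 835 of 1150 stromal-like cells at day 0. The Prg4/Cxcl14 cluster held 4 at day 0 and 750 of 818 at day 3. Day 3 could not be fitted inside the Has1/Tnfaip6 or Myoc/Clec3b cluster. The stromal-like day 3 rises of Il6, Lif, Il11, Clcf1 and Il6st therefore cannot be told apart from this change of clusters. This limit also holds for the stromal-like day 3 falls of Il6ra, Lifr and Il11ra1 and for other day 3 changes of these cells given below.

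In endothelial-like cells Il6 stood at 20.9, 3.13, 14.5 and 2.69 CPM at day 0, against 97.2, 133 and 61.6 at day 3, 148, 51.1, 72.1 and 89.7 at day 7, and 134, 49.6, 138 and 124 at day 21. Every library after injury was above every day 0 library, and the difference was 9.91-fold at day 3, 8.87-fold at day 7 and 11.1-fold at day 21 (adjusted p = 1.6e-05, 1.3e-05 and 0.00011). Within the Timp4/Gpihbp1 cluster Il6 was higher at day 7 (log2 3.88) and day 21 (2.39), both called. That cluster held only 36 cells at day 7, and 156 Il6 UMIs in all 12 libraries with enough of its cells. Within the Plvap/Selp cluster the log2 differences were -0.26, -0.35 and 0.46 at days 3, 7 and 21 and none was called, with only 2 day 0 libraries. In the same sums the 8 stromal markers together ranged from 514 to 735 CPM in day 0 libraries and, in those of days 3, 7 and 21, over 796 to 1296, 1057 to 1953 and 1383 to 2504 CPM. The 11 monocyte/macrophage markers were 205 to 484 CPM at day 0 and 1140 to 1457 at day 3, and the 9 pericyte markers 348 to 637 and 410 to 627. The part of RNA from other cells in the endothelial Il6 change was not tested. At day 0 Il6 there (10.4 CPM) was under the 37.6 CPM it would reach if carried over with the pericyte transcript Rgs5. At days 3, 7 and 21 it was above that level, with 95.15, 98.35 and 116.8 CPM measured beside 31.96, 2.00 and 21.63 CPM.

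Monocyte/macrophage-like cells held little Il6, at 30.9, 8.07, 3.81 and 6.88 CPM at day 0, 13.1, 9.38 and 12.1 at day 3, 6.63, 3.60, 6.26 and 5.08 at day 7, and 21.9, 7.70, 6.78 and 12.3 at day 21. Day 0 replicate 1 was far above the other day 0 libraries. Il6 fell at day 7 (log2 -1.35, adjusted p = 0.037), but without that library the difference was 0.08. Dendritic-like cells had 113, 180, 111 and 24.1 CPM at day 0 and 13.5, 8.16 and 3.86 CPM at day 3, with no overlap and no test run. They numbered only 59 at day 0. With finer clustering, a dendritic-like cluster led by Cd209a held 19 day 0 cells and 250 day 3 cells. An unnamed cluster led by Retnla and Ear2 held 30 and 1. Values of dendritic-like cells at different days may therefore also be of unlike cells. Over the whole site, Il6 rose at day 3 (log2 0.92 ± 0.21, adjusted p = 0.0036) and day 21 (1.39 ± 0.24, adjusted p = 0.00092), and the day 7 difference was 0.34 (adjusted p = 0.23).

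**Figure D2:**
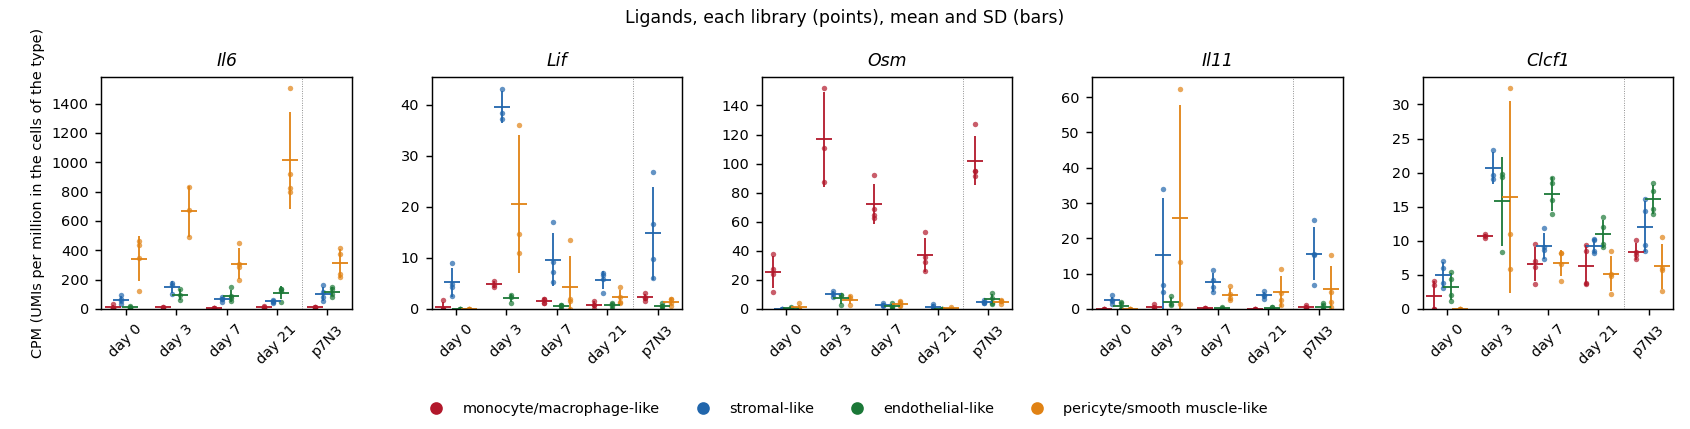
Levels of the 5 ligand genes in CPM (vertical axes) by group in 4 cell types, with a point for each library and bars for the mean ± SD, cut at 0. The stromal-like day 3 libraries sit at 37.2 to 43.1 CPM for Lif and at 19.1 to 23.4 CPM for Clcf1, above all others of those cells, and the monocyte/macrophage-like day 3 libraries sit at 87.6 to 152 CPM for Osm.

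Osm, the oncostatin M gene, was held by myeloid cells and rose early. Monocyte/macrophage-like cells had 37.7, 24.2, 11.4 and 27.5 CPM at day 0, 152, 87.6 and 110 at day 3, 68.6, 64.6, 62.2 and 92.2 at day 7, and 53.2, 26.0, 35.6 and 32.6 at day 21. Days 3 and 7 lay wholly above day 0 and day 21 overlapped it. Osm rose 4.42-fold at day 3 (log2 2.14 ± 0.32, adjusted p = 0.00017) and 3.05-fold at day 7 (1.61 ± 0.25, adjusted p = 0.00011), and at day 21 the log2 difference was 0.53 (95% interval -0.08 to 1.15, adjusted p = 0.22). With each cell thinned to 1500 UMIs, Osm was seen in 3.67% of these cells at day 0 (exact interval 1.91 to 6.32%) and 9.76% at day 7 (8.92 to 10.6%), or 7.28% and 22.3% unthinned, beside 0.536% of thinned stromal-like cells at day 7. Intervals of this kind cover counting error only.

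The macrophage-type clusters differed in Osm. The Chil3 cluster averaged 159 ± 55.9 CPM at day 3 and 251 ± 64.8 at day 7, and the Cd209f/Ccl8 cluster, which held 315 of the 357 day 0 cells, averaged 16.1 ± 14.5, 58.9 ± 12.1, 40.9 ± 8.02 and 18.7 ± 7.80 CPM at days 0, 3, 7 and 21. Fitted inside the Cd209f/Ccl8 cluster alone, Osm was higher at day 3 (log2 1.48) and day 7 (1.10), and both were called. The day 3 value may be of unlike cells, as given above. Granulocyte-like cells, too few at day 0 and day 21, had 134, 66.5 and 123 CPM at day 3 and 87.3, 77.5, 176 and 134 at day 7. At day 3 they overlapped the monocyte/macrophage-like cells of the same libraries (log2 difference 0.20, 95% interval -0.02 to 0.43, adjusted p = 0.21). Dendritic-like cells averaged 23.7, 65.6, 85.2 and 62.1 CPM over the 4 days, which may be of unlike cells as given with Il6.

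Whole-site Osm was 7.80, 3.64, 2.83 and 3.11 CPM at day 0 and 84.3, 47.2 and 68.4 at day 3, an 18.5-fold rise (adjusted p = 3e-06). Day 7 was also higher (log2 2.37 ± 0.33, adjusted p = 0.00014), and at day 21 the difference was 0.45 (adjusted p = 0.31). Stromal-like cells held 0 UMIs of Osm in all 4 day 0 libraries and 12.6, 8.17 and 10.2 CPM at day 3. Against a floor of 3 counts over the day 0 group (0.493 CPM) that was at least 20.5-fold higher, and at day 7 at least 5.69-fold higher. In the same sums the 11 monocyte/macrophage markers together rose from 137 to 189 CPM at day 0 to 1478 to 1556 at day 3, with 10 of 11 above day 0, and the 7 granulocyte markers from 4.37 to 21.4 to 1423 to 2411. If Osm were carried into stromal-like cells in proportion to the macrophage transcript Lyz2, it would reach 7.36 CPM at day 3 and 1.20 at day 7, beside the measured 10.1 and 2.80. The part of carried-over RNA in the stromal Osm change was not tested beyond these values.

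Lif, which maintains stem cells and acts through Lifr, rose at day 3 in stromal-like cells. It stood at 4.23, 2.51, 4.92 and 9.02 CPM at day 0, 43.1, 37.2 and 38.4 at day 3, 17.0, 5.31, 7.15 and 9.12 at day 7, and 5.88, 7.10, 3.05 and 6.69 at day 21. Day 3 was separate from all other days and the rest overlapped. The rise was 7.94-fold (log2 2.99 ± 0.23, adjusted p = 1.1e-07), and the log2 differences at days 7 and 21 were 0.86 and 0.18 (adjusted p = 0.14 and 0.74). Pericyte/smooth muscle-like cells held 0 UMIs of Lif in each day 0 library and 36.1, 11.0 and 14.7 CPM at day 3. At day 21 tenocyte-like cells, of a cluster led by Col2a1, took 50.7 ± 12.2% of all Lif UMIs and stromal-like cells 39.5 ± 12.5%. The share of stromal-like cells at day 3 was 79.5 ± 1.35%. Tenocyte-like and stromal-like cells were 21.3 and 32.1% of all cells at day 21, with medians of 22348 and 12222 UMIs per cell.

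Il11, a cytokine of fibroblasts, was a low gene of stromal-like, tenocyte-like and pericyte-type cells. Over libraries of all groups it averaged 9.61 CPM in the Rgs5/Higd1b cluster (130 UMIs, libraries from 0 to 71.8 CPM) and 7.71 CPM in the tenocyte-like cluster. Stromal-like cells had 2.35, 2.51, 3.82 and 1.50 CPM at day 0, 34.0, 4.71 and 6.65 at day 3, 11.1, 8.05, 6.33 and 4.79 at day 7, and 3.74, 5.19, 2.75 and 3.93 at day 21. Days 3 and 7 lay above day 0, with day 3 replicate 1 far above its group. Il11 rose at day 3 (log2 2.60 ± 0.89, adjusted p = 0.020) and day 7 (1.52 ± 0.42, adjusted p = 0.0078), of which the day 3 call was lost without day 0 replicate 1 or 4 and the day 7 call with finer clustering (log2 0.96, adjusted p = 0.0507) or with all groups in a single fit (adjusted p = 0.151). The Lrrc15/Crabp1 cluster led at day 7 with 15.0 ± 12.7 CPM, and tenocyte-like cells had 10.5, 18.9 and 11.2 CPM at day 0, 2.08, 2.50, 3.08 and 2.19 at day 7, and 17.7, 15.1, 7.12 and 16.7 at day 21. The tenocyte-like values of these days may be of unlike cells, as given above. Those of day 0 rest on at most 50 cells with a median of 7651 UMIs. They stand for few counts, so their size is uncertain. Monocyte/macrophage-like cells held 0 UMIs of Il11 at days 0 and 21. Over the whole site Il11 rose at all 3 times (log2 2.01, 1.36 and 2.05, adjusted p = 0.046, 0.0012 and 0.0013), and without day 3 replicate 1 the day 3 difference was 0.61 (adjusted p = 0.0916). That day 3 call was also lost without any of the 4 day 0 libraries, and the day 7 call with all groups in a single fit (log2 1.40, adjusted p = 0.0942).

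Clcf1, the gene of cardiotrophin-like cytokine factor, was at 7.04, 3.77, 6.01 and 3.00 CPM in stromal-like cells at day 0 and 23.4, 19.1 and 19.7 at day 3, with no overlap. It rose 4.08-fold (log2 2.03 ± 0.23, adjusted p = 5.2e-06), and was higher at day 7 (0.79 ± 0.28, adjusted p = 0.028) and day 21 (0.82 ± 0.25, adjusted p = 0.024), of which the day 7 call was lost without day 0 replicate 2 or 4 or day 7 replicate 1 and with tenocyte-like cells added (log2 0.52, adjusted p = 0.165), and the day 21 call without day 0 replicate 2 or 4 or day 21 replicate 4 and with DESeq2 (adjusted p = 0.0665). Endothelial-like cells had 4.35, 2.09, 1.11 and 5.37 CPM of Clcf1 at day 0 and 19.2, 18.5, 15.9 and 13.9 at day 7, a 5.02-fold rise (adjusted p = 1.8e-05), and inside the Plvap/Selp cluster the day 7 difference was 1.41 and not called. In skeletal muscle-like cells, present mainly at days 0 and 21, Clcf1 was 37.0, 40.5, 51.3 and 66.9 CPM at day 0 and 150, 33.0 and 79.3 at day 21, and these cells held 44.5% of its day 0 UMIs.

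**Figure D3:**
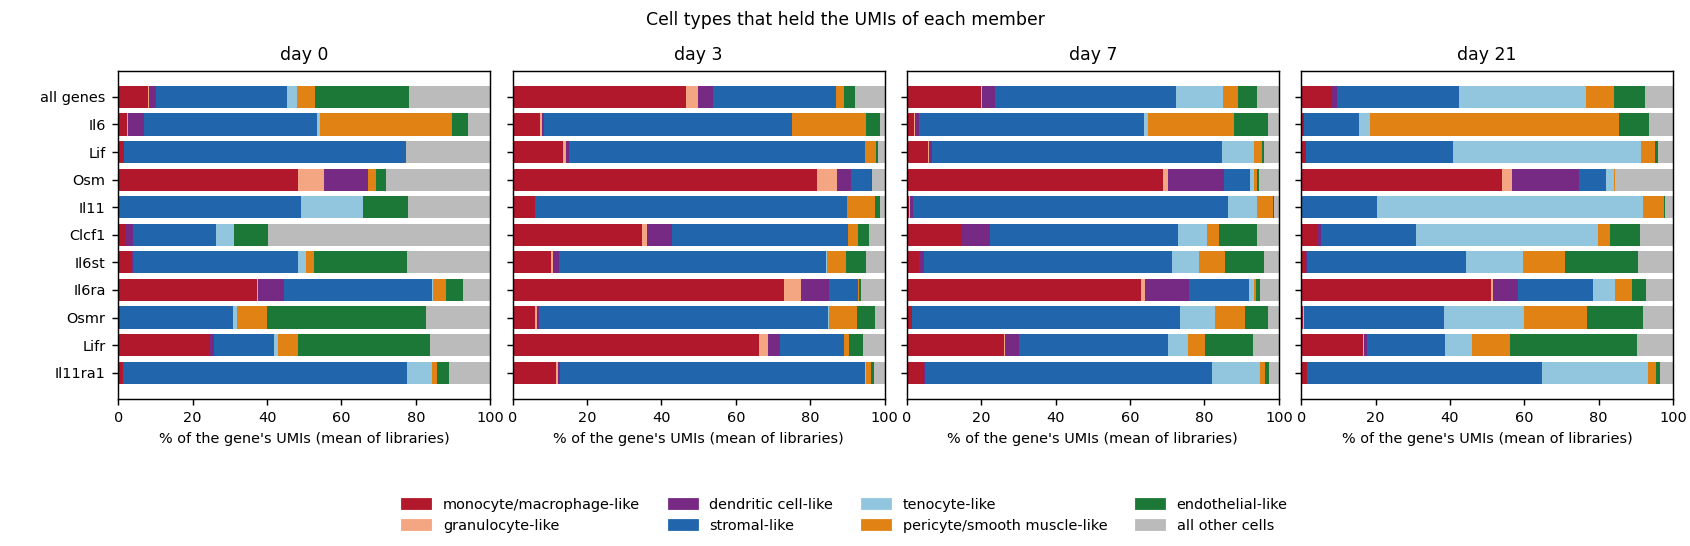
Share (%) of each member's UMIs found in each cell type at days 0, 3, 7 and 21, as stacked bars of means over libraries. Monocyte/macrophage-like cells took 81.8% of Osm at day 3, and pericyte/smooth muscle-like cells took 67.0% of Il6 at day 21.

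Shares of ligand UMIs were then taken by cell type. Stromal-like cells took 46.5 ± 18.1, 66.7 ± 3.40, 60.4 ± 9.96 and 14.8 ± 2.88% of Il6 UMIs at days 0, 3, 7 and 21, and pericyte/smooth muscle-like cells 35.5 ± 17.3, 19.9 ± 4.90, 23.1 ± 3.99 and 67.0 ± 3.44%. Pericyte/smooth muscle-like cells held only 4.85% of the UMIs of all genes at day 0. Stromal-like cells were 32.3, 14.1, 34.8 and 32.1% of all cells at days 0, 3, 7 and 21. Their share of all UMIs is not printed here, so their Il6 shares do not separate level from abundance. For Osm the share of monocyte/macrophage-like cells was 48.4 ± 16.1, 81.8 ± 3.50, 68.8 ± 7.04 and 54.1 ± 12.2%, above their 8.05, 46.6, 19.9 and 8.21% of all UMIs.

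Receptors were then followed in the same cells. Il6st, the shared signal chain gp130, was found in stromal, endothelial and mural cells and was lower in monocyte/macrophage-like cells. Those had 44.6, 72.7, 76.3 and 55.0 CPM at day 0, 21.8, 27.1 and 22.7 at day 3, 22.2, 16.3, 18.6 and 17.2 at day 7, and 18.2, 31.8, 31.4 and 20.8 at day 21. All libraries after injury were below all those of day 0. Il6st fell by 1.21, 1.43 and 1.13 on the log2 scale (adjusted p = 0.00036, 5.2e-05 and 0.0026), and inside the Cd209f/Ccl8 cluster by 1.29 and 1.37 at days 3 and 7, with -0.72 at day 21 not called. At day 3 the level expected if Il6st were carried over with the fibroblast transcript Col3a1 was 10.2 CPM, beside the measured 24.0.

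Stromal-like Il6st was 181, 206, 164 and 195 CPM at day 0 and 236, 218 and 246 at day 3, a rise without overlap (log2 0.42 ± 0.097, adjusted p = 0.0018), and the log2 differences at days 7 and 21 were -0.24 and 0.16 (adjusted p = 0.18 and 0.20). In pericyte/smooth muscle-like cells it was 55.3, 79.0, 59.7 and 90.0 CPM at day 0 and 198, 299 and 257 at day 3, 193, 188, 171 and 194 at day 7, and 235, 256, 221 and 219 at day 21. Every later library was above every day 0 library there, as a description with no test. Cluster makeup changed in these cells too. The Myh11/Tagln cluster held 145 of 183 day 0 cells, and the Rgs5/Higd1b cluster held 473 of 561 day 7 cells. Over libraries of all groups, Il6st averaged 75.1 CPM in the Myh11/Tagln cluster and 249 CPM in the Rgs5/Higd1b cluster. The part of cluster makeup in this difference was not tested. The whole-site level rose only slightly at day 21 (log2 0.24 ± 0.069, adjusted p = 0.015), a call lost without day 21 replicate 1.

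Il6ra, the IL-6-binding chain, was a gene of myeloid cells and fell after injury. Monocyte/macrophage-like cells had 160, 162, 191 and 220 CPM at day 0, 61.2, 64.4 and 58.5 at day 3, 59.7, 43.7, 57.0 and 48.8 at day 7, and 80.2, 101, 88.1 and 55.5 at day 21. No later library reached the lowest of day 0. Il6ra fell 2.78-fold at day 3 (adjusted p = 1.9e-06), 2.95-fold at day 7 (adjusted p = 5.4e-07) and by 1.07 on the log2 scale at day 21 (adjusted p = 0.00022). Inside the Cd209f/Ccl8 cluster the differences were -2.46, -1.20 and -0.81, all called, of which the day 3 value may be of unlike cells as given above. Over the whole site Il6ra was higher at day 3 (log2 0.35 ± 0.11, adjusted p = 0.016), when monocyte/macrophage-like cells made up 46.6% of all UMIs against 8.05% at day 0, and lower at day 7 (-1.05, adjusted p = 0.0013) and day 21 (-1.44, adjusted p = 0.00094). The day 3 call was lost with all groups in a single fit (adjusted p = 0.124).

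Stromal-like Il6ra was 49.8, 36.5, 47.0 and 41.3 CPM at day 0, 8.11, 10.2 and 9.18 at day 3, 7.92, 3.91, 5.17 and 5.06 at day 7, and 8.29, 9.83, 9.77 and 4.36 at day 21. Again no later library came near day 0. The fall was 4.54-fold, 8.07-fold and 5.76-fold (adjusted p = 5.3e-08, 9.9e-08 and 5.3e-06). It was also called within the Has1/Tnfaip6 cluster (log2 -2.13 at day 7 and -1.69 at day 21) and within the Myoc/Clec3b cluster (-1.07 and -1.41). At equal depth of 1500 UMIs, Il6ra was seen in 21.4% of monocyte/macrophage-like cells at day 0 and 8.19% at day 7, and in 7.94% and 1.09% of stromal-like cells. Unthinned, the shares were 45.9, 25.6, 20.4 and 7.18% in that order.

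Lifr, which pairs with gp130 for LIF and CLCF1, fell the most in monocyte/macrophage-like cells. They had 197, 190, 202 and 200 CPM at day 0, 24.8, 46.1 and 31.0 at day 3, 26.3, 19.1, 33.1 and 16.6 at day 7, and 56.9, 52.0, 37.3 and 35.3 at day 21. The day 0 libraries lay close together and far above the rest. Lifr fell 5.49-fold, 7.12-fold and 4.06-fold (adjusted p = 2e-06, 1.7e-08 and 1.6e-07). Clusters differed, with 226 ± 17.9, 42.8 ± 14.5, 93.8 ± 3.18 and 89.8 ± 14.1 CPM at days 0, 3, 7 and 21 in the Cd209f/Ccl8 cluster and 10.3, 4.53 and 6.84 CPM at days 3, 7 and 21 in the Mmp12/Arg1 cluster. Inside the Cd209f/Ccl8 cluster the differences were -2.25, -1.22 and -1.23, all called. Over the whole site Lifr went from 69.1, 69.2, 56.9 and 61.1 CPM at day 0 to 21.7, 13.4, 20.6 and 14.7 at day 7, with no overlap (log2 -1.68 ± 0.16, adjusted p = 1.1e-05).

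Stromal-like Lifr also fell, from 37.6, 26.4, 24.6 and 27.1 CPM at day 0 to 9.82, 16.5 and 10.8 at day 3 (log2 -1.14 ± 0.22, adjusted p = 0.00038), with -1.02 at day 7 and -1.07 at day 21 (adjusted p = 0.00077 and 0.0011). Within single stromal clusters this was not so clear, since the day 7 difference was 0.50 in the Has1/Tnfaip6 cluster and -1.37, not called, in the Myoc/Clec3b cluster. Plasmacytoid dendritic-like cells, too few for a sum at day 0, held 152, 142, 150 and 233 CPM at day 7, and after thinning Lifr was seen in 22.7% of them (exact interval 15.9 to 30.8%), beside 3.72% of monocyte/macrophage-like cells. Without thinning the shares were 53.0% and 11.2%.

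**Figure D4:**
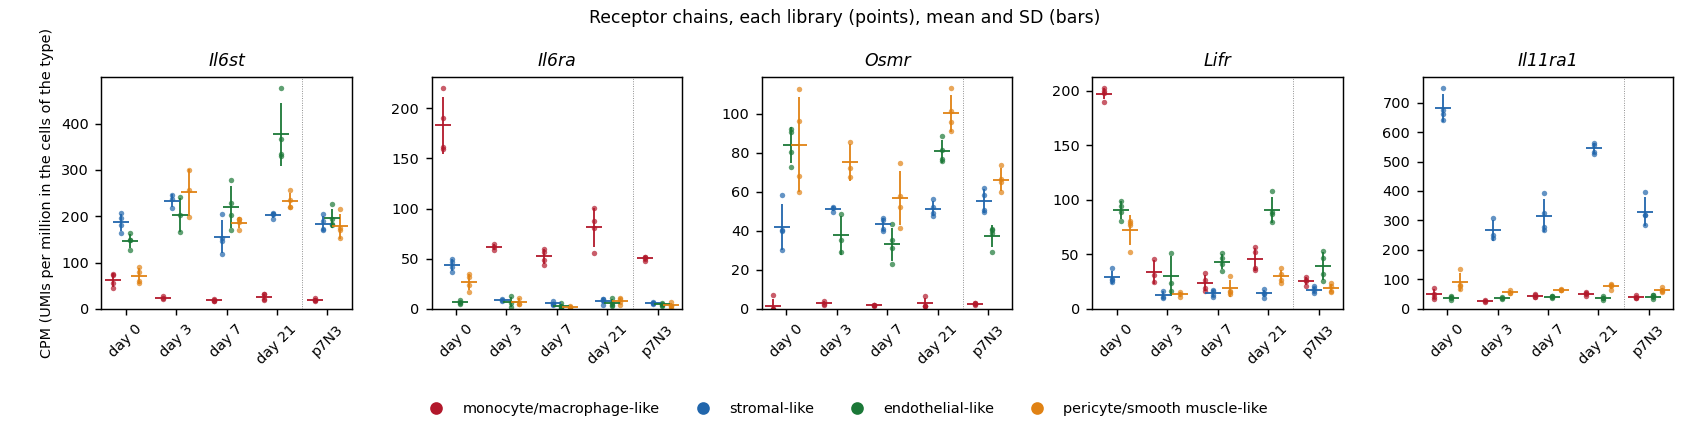
Levels of the 5 receptor genes in CPM (vertical axes) by group in 4 cell types, with a point for each library and bars for the mean ± SD. Il6ra and Lifr of monocyte/macrophage-like cells lie at 160 CPM or above in all 4 day 0 libraries and at 101 CPM or below in all others.

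Osmr, the oncostatin M receptor chain, was nearly absent from monocyte/macrophage-like cells and showed no called change in stromal-like cells. Stromal-like levels were 58.2, 40.2, 30.0 and 39.8 CPM at day 0, 51.9, 52.1 and 49.7 at day 3, 46.8, 39.7, 41.0 and 45.5 at day 7, and 56.3, 47.5, 52.2 and 49.3 at day 21. All days overlapped day 0, and no difference was called (log2 0.35, 0.03 and 0.30, adjusted p = 0.070, 0.90 and 0.17, with 95% intervals of 0.04 to 0.67 at day 3 and -0.29 to 0.34 at day 7). Monocyte/macrophage-like cells had 6.86, 0, 0 and 0 CPM at day 0 and 2.57, 4.19 and 1.97 at day 3, where 2.28 CPM would be carried over with Col3a1. Over the whole site Osmr fell at day 3 (log2 -0.83 ± 0.11, adjusted p = 8.6e-05) and day 7 (-0.57 ± 0.085, adjusted p = 0.00022), and at day 21 the difference was 0.01. In pericyte/smooth muscle-like cells Osmr ranged from 59.7 to 112 CPM at day 0 and from 91.1 to 113 CPM at day 21.

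Endothelial-like Osmr stood at 92.2, 90.9, 80.2 and 72.5 CPM at day 0, 35.6, 48.4 and 29.0 at day 3, 43.5, 22.8, 35.1 and 31.0 at day 7, and 81.4, 77.0, 88.7 and 75.8 at day 21. Days 3 and 7 lay wholly below days 0 and 21. It fell at day 3 (log2 -1.05 ± 0.19, adjusted p = 0.00032) and 2.46-fold at day 7 (adjusted p = 8.3e-06), and at day 21 the difference was -0.02 (95% interval -0.24 to 0.21). Lifr took the same course in these cells, at 99.1, 94.0, 80.2 and 88.6 CPM at day 0, 51.0, 23.5 and 16.3 at day 3, 51.3, 34.8, 46.6 and 40.8 at day 7, and 79.6, 87.1, 108 and 88.3 at day 21. Its falls at days 3 and 7 were called (log2 -1.46 and -1.04, adjusted p = 0.00032 and 9.2e-06), and the day 21 difference was 0.04 (95% interval -0.20 to 0.27). Il6st went the other way, from 163, 126, 148 and 149 CPM at day 0 to 241, 166 and 202 at day 3, 279, 229, 202 and 170 at day 7 and 366, 330, 333 and 477 at day 21, with all later libraries above day 0 (log2 0.58, 0.60 and 1.41, adjusted p = 0.0023, 0.0013 and 2.5e-05).

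These endothelial differences moved with cluster makeup. The Plvap/Selp cluster averaged 800 CPM of Il6st in the 2 day 0 libraries with enough of its cells (589 and 1010), 204 at day 3, 224 at day 7 and 632 at day 21, and the Timp4/Gpihbp1 cluster 112 at day 0 and 116 at day 21. Inside the Plvap/Selp cluster Il6st therefore fell at day 3 (log2 -1.73, adjusted p = 0.0018) and day 7 (-1.60, adjusted p = 0.00063), opposite to the rise over all endothelial-like cells, and was -0.27 at day 21. Osmr inside that cluster was -1.47 at day 3, not called, and fell by 1.68 at day 7, and Lifr fell by 2.71 and 2.19. In the Timp4/Gpihbp1 cluster at day 7, of 36 cells, Osmr and Lifr differed by -0.12 and -0.18, not called.

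**Figure D5:**
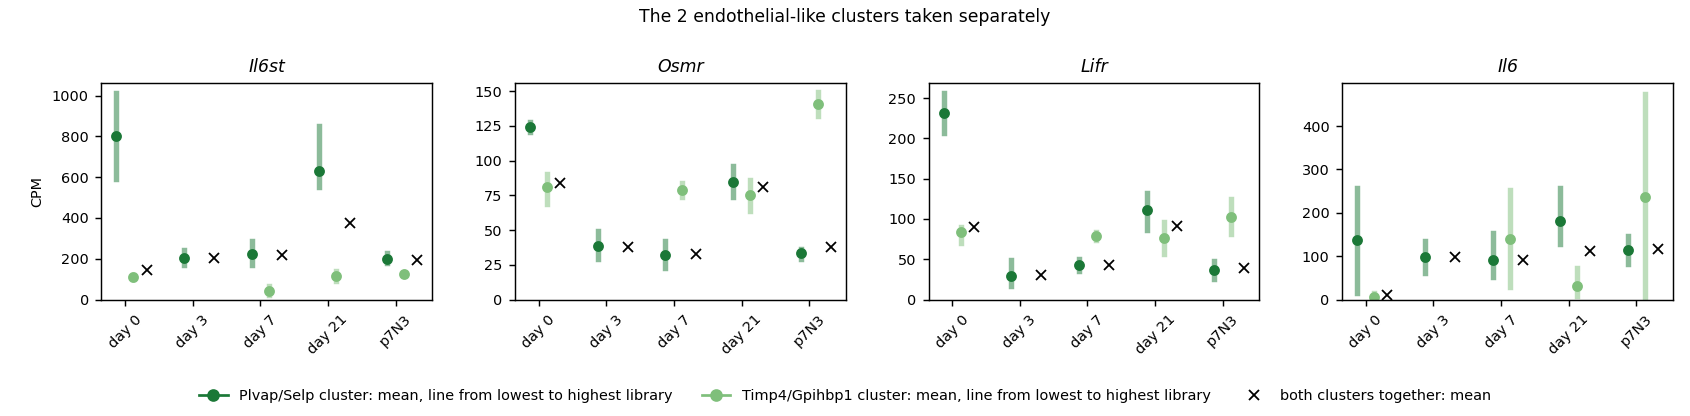
Levels in CPM (vertical axes) of Il6st, Osmr, Lifr and Il6 in the Plvap/Selp and Timp4/Gpihbp1 clusters by group, as means with lines from the lowest to the highest library and a cross for all endothelial-like cells together. The cross for Il6st lies near the Timp4/Gpihbp1 cluster (112 CPM) at day 0 and near the Plvap/Selp cluster (224 CPM) at day 7.

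Il11ra1, the IL-11-binding chain, was high in stromal-like and tenocyte-like cells and fell in stromal-like cells after injury. Other cells held it too, with a UMI, unthinned, in 75.0% of lymphatic endothelial-like cells at day 7 and 51.7% of skeletal muscle-like cells at day 0. Lymphatic endothelial-like levels did not fall at day 7, as given under the other observations. Stromal-like cells had 673, 640, 750 and 663 CPM at day 0, 242, 307 and 250 at day 3, 325, 279, 394 and 269 at day 7, and 564, 557, 533 and 526 at day 21. Each later day lay wholly below day 0, with day 21 closest to it. It fell 2.40-fold at day 3 (adjusted p = 4.5e-07), by 1.09 on the log2 scale at day 7 (adjusted p = 1.6e-05) and by 0.29 at day 21 (adjusted p = 0.021), the last of which was lost without day 0 replicate 3 and with no filter on low counts (adjusted p = 0.0906). Inside clusters the day 7 difference was -0.33 in the Has1/Tnfaip6 cluster, not called, and -0.82 in the Myoc/Clec3b cluster, called. Day 3 could not be fitted inside these clusters. Over libraries of all groups, Il11ra1 averaged 271 CPM in the Prg4/Cxcl14 cluster, 493 in the Myoc/Clec3b cluster and 679 in the Has1/Tnfaip6 cluster. The part of cluster makeup in the day 3 fall was not tested. The cycling Crabp1/Birc5 cluster held 157 CPM and the Sfrp4/Col14a1 cluster 560 CPM at day 7. Tenocyte-like cells had 609, 1004 and 1082 CPM at day 0 and 201, 182, 240 and 214 at day 7, which may be of unlike cells as given above. Endothelial-like cells stayed between means of 36.2 and 41.4 CPM over the 4 days with no call. In monocyte/macrophage-like cells it fell at day 3 (log2 -0.82, adjusted p = 0.0054), a call lost without day 0 replicate 1 or 3.

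The ligand source was then set against the receptor-bearing lineage within the same libraries. At day 7, with the library as a block, stromal-like cells had 32.5-fold less Osm than monocyte/macrophage-like cells and 18.4-fold more Osmr (adjusted p = 1.7e-12 and 2.2e-12). The signal chain Il6st was 6.50-fold higher and Il11 40.4-fold higher in the stromal-like sums, and Il6ra was 12.3-fold lower (adjusted p = 2.3e-12). Il11 was near the floor in monocyte/macrophage-like cells, with 2 to 15 UMIs in each of their clusters over libraries of all groups, so the size of its difference is uncertain. Il6 was higher in stromal-like cells by 3.26 ± 0.12 on the log2 scale (adjusted p = 8.2e-12), and Lifr was lower by 1.05. So Il6 and Il11 RNA were higher in the cells with more Il6st, and Osm and Il6ra RNA were higher in those with less. Clcf1 did not pass (log2 0.11, adjusted p = 0.56), and 9 of 10 members tested were called, where 78.2% of all 12923 genes tested were called, so the count itself is near the background.

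By direction, 6 members were higher and 3 lower in stromal-like cells, against 40.9% and 37.3% of all genes. Receptor chains differed in the same directions at day 0, when Osmr was 15.6-fold and Il11ra1 13.9-fold higher and Lifr 6.53-fold lower in stromal-like cells, with 6 of 6 members tested called, 4 higher and 2 lower (background 57% in all, 30.2% higher and 26.9% lower). The size of the day 0 Osmr difference is uncertain, because monocyte/macrophage-like cells held only 4 UMIs of Osmr at day 0. At day 3, Osm was 13.5-fold lower, Lif 6.84-fold, Il11 18.4-fold and Il6 10.5-fold higher in stromal-like cells, with 10 of 10 called, 7 higher and 3 lower (background 80%, 40.2% and 39.8%). At day 21 Osm was 36.5-fold lower and Osmr 17.5-fold higher, with 7 of 8 called, 4 higher and 3 lower (background 66.3%, 34.7% and 31.6%). Endothelial-like cells had less Il6 than stromal-like cells at day 0 (7.04-fold, adjusted p = 4.2e-11), with 6 of 6 members called, 2 higher and 4 lower (background 63.5%, 31.2% and 32.4%). At day 7 the Il6 difference was 0.24 on the log2 scale and did not pass (adjusted p = 0.21), and 8 of 10 members were called, 3 higher and 5 lower (background 60%, 28.9% and 31.1%). Lifr was higher in endothelial-like cells at both times (2.59-fold and 2.64-fold), and Il11 and Lif were 33.2-fold and 21.9-fold lower at day 7. Both were near the floor in endothelial-like cells, so the sizes are uncertain. Over libraries of all groups the Plvap/Selp cluster held 13 UMIs of Il11 and 16 of Lif, and the Timp4/Gpihbp1 cluster 4 and 1. Of the day 7 calls, Il6ra (log2 -1.02) was lost without day 7 replicate 1, 3 or 4, Il6st (0.32) was lost without day 7 replicate 2, and both were lost with DESeq2. Against monocyte/macrophage-like cells at day 3, granulocyte-like cells had 2 of 9 members called, both lower (background 24.9%, 9.55% lower), Lifr at -0.64 and Il11ra1 at -0.79. The Lifr call was lost without any of the 3 libraries, the Il11ra1 call without replicate 1 or 3, and both with DESeq2.

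Joint detection of receptor chains in single cells followed the lineages. At day 7, 34.1% of stromal-like cells held UMIs of both Il6st and Osmr (exact interval 32.7 to 35.5%) and 71.1% held both Il6st and Il11ra1. Only 5 of 4726 monocyte/macrophage-like cells (0.106%) held both Il6st and Osmr, and 2.96% held Il6st with Il6ra. In endothelial-like cells the pair Il6st and Lifr was found in 27.4% and Il6st and Osmr in 23.5%, and in pericyte/smooth muscle-like cells Il6st and Osmr in 31.4%. These shares were not thinned, so those of different cell types and days also carry their depth.

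Across the members, counts of calls were set beside those of all genes. Over the whole site at day 3, 9 of 10 members were called, 6 higher and 3 lower, where 74.6% of all genes were called, 37.3% in each direction. At day 7 it was 7 of 10, with 3 higher and 4 lower (background 63.5%, 32.1% higher and 31.4% lower), and at day 21 again 7 of 10, with 5 higher and 2 lower (background 51.8%, 25.9% in each direction). In stromal-like cells 9 of 10 were called at day 3, 6 higher and 3 lower (background 66%, 33.2% and 32.8%), 6 of 10 at day 7, 3 in each direction (53.8%, 27.7% and 26.1%), and 4 of 9 at day 21, 1 higher and 3 lower (33.9%, 17.2% and 16.7%). In monocyte/macrophage-like cells Osm was the only member called higher. The calls there were 5 of 5 at day 3, 1 higher and 4 lower (background 53%, 25.3% and 27.7%), 5 of 7 at day 7, again 1 and 4 (34.8%, 18.1% and 16.7%), and 3 of 5 at day 21, all lower (26.6%, 14.1% lower). Their median log2 difference was -1.21, -1.35 and -1.07, beside 0.00, 0.00 and -0.02 for all genes. The day 7 median is the value of Il6 itself, and without day 0 replicate 1 that value was 0.08 and not called, which leaves Il6st, Il6ra and Lifr called lower. Endothelial-like cells had 4 of 5 called at day 3, 2 in each direction (background 57.8%, 29.1% and 28.7%), 5 of 6 at day 7, 3 higher and 2 lower (58.6%, 29.5% and 29%), and 3 of 6 at day 21, all higher (26.4%, 13.8% higher). Few members were tested in those cells because most ligands were too low, so a filter on counts shaped these numbers.

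The effects themselves differed between cell types. The day 7 change of Il6 was larger in endothelial-like than in stromal-like cells by 3.01 on the log2 scale, and that of Osmr was lower by 1.38. Set against the stromal-like change, that of monocyte/macrophage-like Lifr was lower by 1.78 and that of Il6ra was higher by 1.50. All 4 were called in a test of the difference, in which 28.7% of genes were called for the endothelial-like and 19.9% for the monocyte/macrophage-like cells. These tests were chosen after the values were seen, and all 4 compare cell types whose cluster makeup changed since day 0. Differences inside single clusters are given above with each gene and were not set against each other in a test.

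Genes known to be induced through STAT3 were followed in a list of 20, and co-receptors, kinases and regulators in a list of 25. Whether the listed genes moved through receptors of this family was not tested. At day 3 the STAT3-target list had 14 higher and 3 lower of 19 tested over the whole site (median log2 1.33, all genes -0.00), where 37.3% of all genes were called in each direction. It had 11 higher and 0 lower of 14 in monocyte/macrophage-like cells (0.97, background 25.3% higher and 27.7% lower), 11 and 7 of 19 in stromal-like cells (0.77, background 33.2% and 32.8%), and 13 and 0 of 16 in endothelial-like cells (1.56, background 29.1% and 28.7%). By day 7 stromal-like cells had 7 higher and 9 lower of 19 (-0.23, background 27.7% and 26.1%), and at day 21 it was 4 and 8 of 18 (-0.40, background 17.2% and 16.7%). Endothelial-like cells had 9 higher and 1 lower of 14 at day 7 (0.88, background 29.5% and 29%). At day 21 they had 11 higher and 0 lower of 14 (1.22, background 13.8% and 12.6%). Monocyte/macrophage-like cells had 6 and 3 of 16 at day 7 (0.27, background 18.1% and 16.7%). At day 21 they had 5 and 4 of 12 (-0.08, background 12.5% and 14.1%). Over the whole site the counts were 8 and 5 of 19 at day 7 (0.06, background 32.1% and 31.4%). At day 21 they were 8 and 8 of 19 (-0.26, background 25.9% in each direction). Timp1, an inhibitor of matrix proteases, rose in stromal-like cells from 56.9 ± 29.6 CPM at day 0 to 2986 ± 398 at day 3, 1409 ± 178 at day 7 and 544 ± 204 at day 21 (log2 5.86, 4.68 and 3.33). Saa3, an acute-phase gene, held 0 UMIs in stromal-like cells at day 0 and 533 ± 162 CPM at day 3, at least 1025-fold above the floor of 3 counts over the group. Medians of the lists were the same with genes absent at day 0 set to such bounds.

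Socs3, the feedback inhibitor, fell in stromal-like cells. It averaged 347 ± 25.4 CPM at day 0, 165 ± 29.6 at day 3, 165 ± 26.5 at day 7 and 217 ± 22.0 at day 21, with log2 differences of -0.98, -1.06 and -0.65, all called. Within the Myoc/Clec3b cluster the differences were 0.09 at day 7 and 0.25 at day 21, and within the Has1/Tnfaip6 cluster -1.11 and 0.08, of which only the -1.11 was called. In endothelial-like cells Socs3 was higher at day 7 (0.80) and day 21 (1.33), and in monocyte/macrophage-like cells at day 3 (0.70) and day 21 (0.47). Inside the Plvap/Selp cluster the endothelial differences turned to -1.31, called, and -0.47, not called, while inside the Timp4/Gpihbp1 cluster they were 1.55 and 0.90, both called. Inside the Cd209f/Ccl8 cluster Socs3 was -0.36 at day 3 and 0.13 at day 21, neither called. Lcn2, an iron-carrier gene of the acute phase, rose at day 3 in stromal-like (log2 2.67), monocyte/macrophage-like (3.61) and endothelial-like cells (3.37), and its stromal-like difference at day 7 was -0.21. Serpina3n, a protease inhibitor, was higher in stromal-like cells at all 3 times (1.10, 0.58 and 0.93), and Bcl3, an NF-κB cofactor, at day 3 alone of the 3 (0.68). Il4ra, a cytokine receptor chain, rose in stromal-like cells at day 3 (log2 2.46) and day 7 (1.35), although the day 7 difference was -0.01 within the Has1/Tnfaip6 cluster. A list of 11 genes known to respond to cell handling, such as Fos and Egr1, moved down over the same time, with 0 higher and 9, 11 and 10 lower over the whole site (background 37.3, 31.4 and 25.9% lower), and 10, 9 and 9 lower in stromal-like cells (32.8, 26.1 and 16.7%). Monocyte/macrophage-like cells had 0 higher and 7, 9 and 9 lower at days 3, 7 and 21 (27.7, 16.7 and 14.1% lower). Endothelial-like cells had 5 and 7 lower at days 3 and 7 (28.7 and 29%) but 7 higher and 0 lower at day 21 (13.8% higher). Junb stands on this list and on that of STAT3 targets, and the part of handling in the members' changes was not tested.

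The transducer list had 3 higher and 8 lower of 18 tested in stromal-like cells at day 3 (median -0.52, background 33.2% and 32.8%), 4 and 7 of 19 at day 7 (-0.15, background 27.7% and 26.1%), and 5 and 9 of 21 over the whole site at day 3 (-0.18, background 37.3% in each direction). In these comparisons its share of called genes was near the background. Endothelial-like cells had 4 higher and 4 lower of 15 tested at day 3 (-0.16, background 29.1% and 28.7%). They had 6 and 8 of 15 at day 7 (-0.33, background 29.5% and 29%) and 6 and 2 of 15 at day 21 (0.26, background 13.8% and 12.6%), so more were called there than in the background at days 7 and 21. Cntfr, the ciliary neurotrophic factor receptor to which CLCF1 also binds, fell in stromal-like cells (log2 -2.83, -2.06 and -1.53 at days 3, 7 and 21). Stat3 itself had differences of 0.14, -0.11 and -0.03 there, none called, but its macrophage levels fell (log2 -0.61, -1.06 and -0.59 in the monocyte/macrophage-like sums). Jak1, the main kinase on gp130, fell there too (-0.59, -0.56 and -0.60) and was higher in endothelial-like cells (0.71, 0.61 and 0.54). Inside the Plvap/Selp cluster those endothelial differences were -0.11, -0.10 and -0.14. Adam17, the protease that sheds the IL-6 receptor from cells, fell in stromal-like cells at days 3 and 7 (-0.63 and -0.56), although within the Myoc/Clec3b cluster it was 0.29 at day 7. Cish, another feedback inhibitor, differed in stromal-like cells by -0.55, -0.01 and 0.09, none called.

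The effect of p7N3 was judged against day 7. No gene was called in the whole site or in the monocyte/macrophage-like, stromal-like or endothelial-like cells by edgeR (background 0% in all 4), while DESeq2 called 134, 23, 107 and 11 genes. At an unadjusted p under 0.05, edgeR had 12.3, 7.95, 12.2 and 8.15% of genes, and 3 of 10, 2 of 9, 4 of 10 and 0 of 6 members. Il6 in stromal-like cells was 53.9, 80.2, 160 and 118 CPM with p7N3, beside 67.2, 49.3, 66.1 and 80.7 at day 7, and the groups overlapped (log2 0.65, adjusted p = 0.39). Osm in monocyte/macrophage-like cells was 91.5, 94.9, 127 and 94.9 CPM with p7N3 and 68.6, 64.6, 62.2 and 92.2 at day 7, an overlap by day 7 replicate 4 alone (log2 0.49, 95% interval 0.23 to 0.75, adjusted p = 0.36). Stromal-like Osmr was 58.5, 50.8, 62.1 and 49.9 CPM with p7N3, all above the 39.7 to 46.8 of day 7 (log2 0.36, 95% interval 0.17 to 0.55, adjusted p = 0.24). Il11 had the largest member difference of the stromal-like cells (log2 1.07, adjusted p = 0.30), with 6.64, 15.3, 15.5 and 25.2 CPM against 11.1, 8.05, 6.33 and 4.79, again overlapping. None of these passed the correction, which does not show that the groups were alike.

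Genes with the most similar pattern over 195 sums of library and cell type, among 10695 genes, were sought for each member by Pearson's r of log2 levels, as a description in which sums share libraries and depth. Osm was closest to Lrrc25 (0.875), Myo1f (0.867) and Ms4a6c (0.865), all genes of myeloid cells. Il6 was closest to Abcc9 (0.687), Pi15 (0.665) and Ednra (0.660), of which Abcc9 is a known pericyte gene and Ednra an endothelin receptor of smooth muscle. Osmr was closest to Eln (0.871), the elastin gene, and Il11ra1 to Selm (0.814) and Ltbp3 (0.801), a carrier of latent TGF-β. The best matches of Il6ra and Lifr were Clec10a (0.698), a macrophage lectin gene, and Aldh2 (0.611), and those of the lowest ligands were weak, with Cxcl5 (0.537) for Lif and Rplp0 (0.527) for Clcf1.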

How the data were processed

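The authors deposited 10x 3′ UMI counts as a matrix of genes by cell barcodes for each library, made with Cell Ranger. The submitters' processing notes name Cell Ranger and Seurat with no version used here, and the builds mm10 and GRCh38, while every identifier in the files is a mouse gene. Counting used reads from the 3′ end, so levels of different genes were not compared. Barcodes under 500 genes or over 25% mitochondrial UMIs were dropped. The rest were clustered with scanpy 1.11.5 (2000 variable genes without the members and list genes, 30 components, 20 neighbours, Leiden resolution 0.8, leidenalg 0.10.2) into 34 clusters, which were named from marker lists. A name needed at least 3 detected markers, and an unnamed remainder held 432 cells. Doublets were not removed, and an alternative removed the top 3.9% of Scrublet scores (1553 cells).

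Sums of counts for each library and cell type, made from 10 cells or more, were tested in edgeR 4.0.16 (R 4.3.3, quasi-likelihood, TMM, filterByExpr), and DESeq2 1.42.0 was an alternative. Comparisons of cell types carried the library as a block. Each time comparison fitted only its own 2 groups. Depth per library is given with the results, and a level of 0 allows up to 3 counts. Confidence intervals are at 95%. Those of log2 differences are approximate, made from the SE with normal quantiles, where the SE was taken back from the F statistic of the test. With so few libraries per group they are likely too narrow. The tests were checked on simulated counts. Other normalization, filters, cell filters, clustering and left-out libraries were also run, and fits within single clusters were added after seeing the data. Named genes were the 10 members and, of the lists, Stat3, Jak1, Socs3, Cish, Adam17, Cntfr, Timp1, Saa3, Serpina3n, Lcn2, Bcl3 and Il4ra whatever their result, except for 1 further gene of that rule that is not reported here, beside the 3 genes most like each member in pattern, of which the leading ones are given. The members and lists were chosen with earlier results of these data known. Genotype was not analysed, since no label ties it to a library. Replicate numbers did not pair the libraries: of 36 same-numbered pairs, 2 had deviations correlated above 0.1 (range -0.157 to 0.206).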

Additional observations from a re-analysis of the deposited data

Results flagged for a closer look

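In groups of 4 libraries, 8 of 147 sets of values held a library far from the other 3, where chance gives about 1 in 20. For Il6 these were day 0 replicate 1 in monocyte/macrophage-like cells (30.9 CPM, others 3.81 to 8.07), day 21 replicate 2 in endothelial-like cells (49.6 CPM, others 124 to 138) and day 21 replicate 1 in pericyte/smooth muscle-like cells (1505 CPM, others 799 to 918). For the other genes they were Osm of p7N3 replicate 3 in monocyte/macrophage-like cells (127 CPM, others 91.5 to 94.9), Il6st of day 21 replicate 4 in stromal-like cells (193 CPM, others 205 to 207), Osmr of p7N3 replicate 2 in endothelial-like cells (29.3 CPM, others 39.0 to 41.0), Lifr of day 0 replicate 3 in pericyte/smooth muscle-like cells (51.8 CPM, others 76.5 to 80.9) and Il11ra1 of day 7 replicate 3 over the whole site (263 CPM, others 177 to 182).

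The change since day 0 differed between cell types in 27 tests of the difference by edgeR, chosen after the values were seen, each as a log2 change minus that of stromal-like cells and each called. In endothelial-like cells the differences at day 3 were 2.07 for Il6, 2.37 for Il6ra, -1.36 for Osmr and 1.37 for Il11ra1 (25% of all genes called). At day 7 they were 3.01 for Il6, 1.45 for Clcf1, 0.82 for Il6st, 1.83 for Il6ra, -1.38 for Osmr and 1.20 for Il11ra1 (28.7%). By day 21 they were 3.68 for Il6, 1.20 for Il6st, 2.16 for Il6ra and 1.07 for Lifr (15%). In monocyte/macrophage-like cells the differences at day 3 were -1.43 for Il6, -1.38 for Il6st, 0.98 for Il6ra, -1.03 for Lifr and 0.71 for Il11ra1 (28.9%). At day 7 they were -1.36 for Il6, -1.15 for Il6st, 1.50 for Il6ra, -1.78 for Lifr and 1.20 for Il11ra1 (19.9%), and at day 21 -1.18 for Il6st, 1.55 for Il6ra and -0.81 for Lifr (10.3%). A further called difference, that of Osm at day 3 in monocyte/macrophage-like cells, is not among the 27, because stromal-like cells held 0 UMIs of Osm at day 0 and the fitted size then depends on the prior count. All comparisons share the day 0 libraries, and cluster makeup within each cell type changed between days.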

How the results depend on the processing

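Leaving out each library in turn kept direction and side of the threshold in 644 of 679 fits of called members, lost the call in 34 and turned the direction in 1, and RLE factors changed none of 115. Called members numbered 23 of 30 tested over the whole site and 20 to 23 with a library left out, 13 of 17 and 12 to 15 in monocyte/macrophage-like, 19 of 29 and 16 to 20 in stromal-like, 12 of 17 and 12 to 13 in endothelial-like cells, 32 of 34 and 32 to 34 for stromal-like against monocyte/macrophage-like cells, and 14 of 16 and 13 to 14 for endothelial-like against stromal-like cells. For p7N3, 0 of 35 became 1 with DESeq2 (Osmr over the whole site) and 1 with no filter on low counts (Il6 in monocyte/macrophage-like cells). For granulocyte-like cells, 2 of 9 became 0 with DESeq2, 1 with no library block and 0 to 1 without a library. Il6 at day 7 in monocyte/macrophage-like cells ran from -1.55 to 0.0765 without a library. The replicate block, in which libraries share only a number, gave 22, 14, 20 and 12 called members in the 4 time courses and 0 for p7N3, and took the calls of Il11 at day 3 (log2 1.62, adjusted p = 0.0645) and Il6st at day 21 (adjusted p = 0.0529) over the whole site. The shared number gave the highest correlation in 8 of 36 pairs.

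Fits inside single clusters, added after seeing the data, turned several log2 differences, and the cause was not tested beyond the makeup of the clusters. In the Cd209f/Ccl8 cluster at day 3 Bcl3 was -0.29 and Socs3 -0.36. In the Myoc/Clec3b cluster at day 7 Jak1 was 0.41, Socs3 0.0922 and Adam17 0.29, and at day 21 Jak1 was 0.10 and Socs3 0.25. In the Has1/Tnfaip6 cluster Il4ra was -0.0134 and Lifr 0.50 at day 7, and Jak1 0.0245 and Socs3 0.0846 at day 21. In the Plvap/Selp cluster, with 2 day 0 libraries, day 3 gave Jak1 -0.11, Il6 -0.26, Bcl3 -0.19, Il6st -1.73 and Adam17 0.42. There, day 7 gave Jak1 -0.10, Il6 -0.35, Bcl3 -0.90, Socs3 -1.31, Il6st -1.60 and Adam17 0.43, and day 21 gave Jak1 -0.14, Bcl3 -0.65, Il4ra -0.24, Socs3 -0.47, Il6st -0.27 and Adam17 0.40. In the Timp4/Gpihbp1 cluster at day 7 Jak1 was -0.76, Cish 0.60 and Il6st -1.19. With tenocyte-like cells added to the stromal-like, Jak1 against monocyte/macrophage-like cells at day 21 was -0.11. Day 3 could not be fitted in the Has1/Tnfaip6, Myoc/Clec3b and Timp4/Gpihbp1 clusters, which held too few cells. Day 0 libraries were the shallowest, so a gene at 0 there may be under the limit of detection.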

Other observations

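Lymphatic endothelial-like cells, present in number in only 2 day 0 libraries, held Il6st at 619 and 522 CPM at day 0, 146, 109, 178 and 263 at day 7 and 454, 350, 269 and 158 at day 21. Their Osmr was 105 and 113 CPM at day 0 and 40.0, 25.2, 24.9 and 43.8 at day 7. Their Il11ra1 was 105 and 136 CPM at day 0 and 271, 265, 231 and 426 at day 7, so the receptor chains moved in different directions in these few cells, with no test run. T/NK lymphocyte-like cells held Lif at 28.9 ± 34.1 CPM at day 0, a spread wider than its mean. Pericyte/smooth muscle-like cells had Il6ra at 17.0, 35.1, 23.9 and 31.5 CPM at day 0 and 2.24, 1.89, 1.36 and 2.90 at day 7, without overlap, and Lifr at 80.9, 79.0, 51.8 and 76.5 CPM at day 0 and 16.5, 13.2, 30.0 and 15.2 at day 7, also without overlap. Over libraries of all groups, the Myh11/Tagln and Rgs5/Higd1b clusters averaged 14.2 and 5.23 CPM of Il6ra, and 45.7 and 22.2 of Lifr. The part of the changed makeup of these clusters was not tested. Dendritic-like cells had Il6ra at 93.0, 203, 161 and 96.5 CPM at day 0 and 63.9, 46.2, 52.3 and 51.4 at day 7, so every day 7 library lay below every day 0 library there too. These day 0 values rest on 59 cells, and the 2 days may be of unlike cells, as given with Il6.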
